A study of Mus musculus with 6 samples.

Results

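Proprioceptive afferent genes are a set of 5 genes known to mark the sensory neurons that carry signals from muscle spindles and tendon organs into the spinal cord. The set held Pvalb, Etv1, Runx3, Slc17a7 and Heg1, of 18193 genes named on the arrays, and their probe sets were found by the gene symbol in the array annotation. The genes were chosen with earlier results of these data known. In all 8 probe sets matched, 5 of which named 1 gene and 3 of which named Etv1 together with the pseudogene Gm5454 and are called Etv1/Gm5454 below. Pvalb was measured on array type A alone, Slc17a7 and Heg1 on array type B alone, and Runx3 and Etv1/Gm5454 on both.

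The samples were 3 RNA pools from mouse lumbar spinal cord, covering L3 to L5 and collected on postnatal day 27, each made from the total RNA of 3 cords. Egr3-deficient pool 1 and pool 2 were set against 1 wild-type pool, and each pool was hybridised to both array types. The labels give neither the strain nor the sex of the mice, nor the Egr3 allele. They carry a remark on acclimatization for pool 2 and the wild-type pool, without saying what it was, and none for pool 1. Whether the animals of a pool share a litter is not stated, and the wild-type pool has no replicate. The p-values and SEs draw on the spread between the 2 Egr3-deficient pools (1 degree of freedom) and on that of the other probe sets. The other probe sets count for 6.54 degrees of freedom on array type A and 52.3 on B. On B the SEs and intervals therefore rest mostly on other probe sets, also where the 2 pools of a gene lie far apart.

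Proprioceptors have their cell bodies in the dorsal root ganglia, outside the cord, and send central axons that end on motor neurons and interneurons. The transcription factor Runx3 is known to set up the proprioceptor fate, and the ETS factor Etv1, also called ER81, is known to be needed for the growth of their axons into the ventral cord. Egr3 acts at the other end of the circuit, in the muscle spindle, where it is induced by contact with the sensory axon, and mice without Egr3 lose their spindles and become ataxic. Cells of the cord itself also express members of the set: Pvalb, a calcium buffer, is found in interneurons, and Heg1, a membrane receptor, in endothelial cells. Pvalb is also strongly expressed by fast skeletal muscle fibres. In these bulk samples, fewer cells of a type and less RNA per cell cannot be told apart.

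Of the 5 members, Pvalb was the one that read above wild type in both Egr3-deficient pools, while Slc17a7 and both Etv1/Gm5454 probe sets of array type A read below it in both. Heg1 was far below wild type in pool 1 and above it in pool 2. Runx3 was too dim to be tested on either array type, and on A it also read below wild type in both pools. None of the tested differences passed the test across all probe sets.

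The setting for these values was as follows. The Egr3 probe sets read 24.9 and 52.7 in Egr3-deficient pools 1 and 2, against 40.6 in wild type, on array type A, and 210 and 107 against 75.3 on array type B. They did not differ by limma (adjusted p = 0.986 and 0.348), and no source used here says whether they cover the deletion, so they do not check the labels. The median intensity per array ranged from 50.3 to 60.1 on A and from 76.2 to 91.8 on B. The Gapdh control had 3'-to-5' ratios that ran from 0.805 to 0.975 in the Egr3-deficient arrays, against 0.734 and 0.755 in the wild-type arrays, while those of beta-actin were 1.37 and 1.48 against 1.36 on A and 1.40 and 1.47 against 1.52 on B. The part of RNA quality in the results was not tested. Pool 2 stood apart by transcripts known from liver: 6 hepatocyte genes on A summed to 413 in pool 1 and 11092 in pool 2, against 123 in wild type. Pool 1 held a smaller signal of this kind, as all 6 exceeded wild type in both pools after normalization. Among them Fgb did not reach the filter and hardly differed in pool 1, at 0.795 against 0.627 in wild type. Ttr, the 1 hepatocyte gene measured on B, read 584 in pool 1 and 6739 in pool 2, against 50.9. Each member is therefore given for pool 1 and pool 2 separately. Of markers of glia, 2 of 4 astrocyte genes fell on B (median log2 difference -0.69) and 0 of 5 were called on A. Both calls were lost without quantile normalization (median -0.29), with median centring (-0.12), with scaling on common probe sets, with no filter and without trend. With a pseudocount of 1, or with p-values adjusted jointly for A and B, 1 was kept. Before normalization Slc1a2 read 3513 and 7489 in pools 1 and 2, against 7384 in wild type, and Aqp4 read 356 and 434 against 1239. No oligodendrocyte gene was called on A (4 genes) or B (1 gene). Here a gene above or below wild type in both pools is so after normalization, on the log2(intensity + 16) scale. Probe sets whose mean log2 value lay under the 40th percentile of the array type, near an intensity of 36.7 on A and 55.9 on B, were not tested.

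The promoters of the members are shown because the deficient gene, Egr3, encodes a zinc finger factor known to bind GC-rich sites of the form GCGNGGGCG. Sequences are from RefSeq, build GRCm38.p6, and each covers 300 bases, from 250 before to 50 after an annotated start site. All 5 genes matched, with 8 start sites in all. The motif GCGNGGGCG, searched on both strands, was found once in the Heg1 promoter and once in the second Runx3 promoter, and was not found in those of Pvalb, Etv1 and Slc17a7. Of all 32851 promoters in the table, 5.55% held it. The GC content was 69.0% in the Heg1 promoter and 77.3% in the second Runx3 promoter, against a promoter median of 52.7%. Promoters of members without the motif ran from 44.0% to 67.7%. The part of base composition in the 2 matches was not tested. In the lines below the match is in capitals. It begins 20 bases before the start site in Runx3, on the strand of the gene, and 102 bases before it in Heg1, on the opposite strand. In the first Pvalb promoter the capitals mark a match to the motif of the transcription factor MEF2, on the opposite strand. The match begins 180 bases before the start site, and 1.86% of all promoters hold this motif. The second Pvalb promoter holds no match to it.
Heg1, chr16:33684216-33684515, plus strand: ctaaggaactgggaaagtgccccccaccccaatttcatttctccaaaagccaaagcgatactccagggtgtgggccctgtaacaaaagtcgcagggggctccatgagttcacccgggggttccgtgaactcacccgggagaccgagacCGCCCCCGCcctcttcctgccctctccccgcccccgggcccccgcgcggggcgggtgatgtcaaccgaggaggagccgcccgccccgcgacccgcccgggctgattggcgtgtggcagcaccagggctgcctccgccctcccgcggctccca
Runx3, chr4:135152295-135152594, plus strand: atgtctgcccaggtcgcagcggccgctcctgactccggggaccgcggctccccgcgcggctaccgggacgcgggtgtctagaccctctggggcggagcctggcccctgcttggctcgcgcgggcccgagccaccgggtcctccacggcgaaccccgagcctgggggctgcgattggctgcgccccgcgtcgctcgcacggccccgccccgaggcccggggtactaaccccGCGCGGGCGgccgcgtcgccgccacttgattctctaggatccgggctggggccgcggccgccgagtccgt
Pvalb, chr15:78206351-78206650, minus strand: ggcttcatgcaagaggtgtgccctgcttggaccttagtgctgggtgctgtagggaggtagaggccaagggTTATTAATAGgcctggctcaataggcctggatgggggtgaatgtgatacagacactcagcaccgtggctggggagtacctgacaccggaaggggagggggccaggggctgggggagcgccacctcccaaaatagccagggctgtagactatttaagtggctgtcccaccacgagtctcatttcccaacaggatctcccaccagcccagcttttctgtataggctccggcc

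A match is a description of these letters and says nothing of binding. Of the genes with an EGR match, Heg1 differed in sign between the Egr3-deficient pools and Runx3 did not reach the filter, as the values below show.

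Pvalb (chromosome 15, 78191112 to 78206400) was bright in every pool. Its intensity was 1354 in pool 1 and 1487 in pool 2, against 848 in wild type. It lay at percentile 96.8 and 97.3 of all probe sets in the Egr3-deficient pools, against 95.1 in wild type. Both Egr3-deficient pools were thus above wild type, by 1.60-fold in pool 1 and 1.75-fold in pool 2. Of all probe sets on array type A, 42.7% were above wild type in both pools after normalization and 35.5% were below it in both. The log2 difference of Pvalb after normalization was 0.53 in pool 1 and 0.73 in pool 2, with a mean of 0.63 and an SE of 0.24 (95% interval 0.08 to 1.19, limma adjusted p = 0.208). The 2 Egr3-deficient pools differed from each other by 0.20, which is less than the mean difference from wild type. Of all tested probe sets on array type A, 87.0% had the same or a lower difference.

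**Figure D1:**
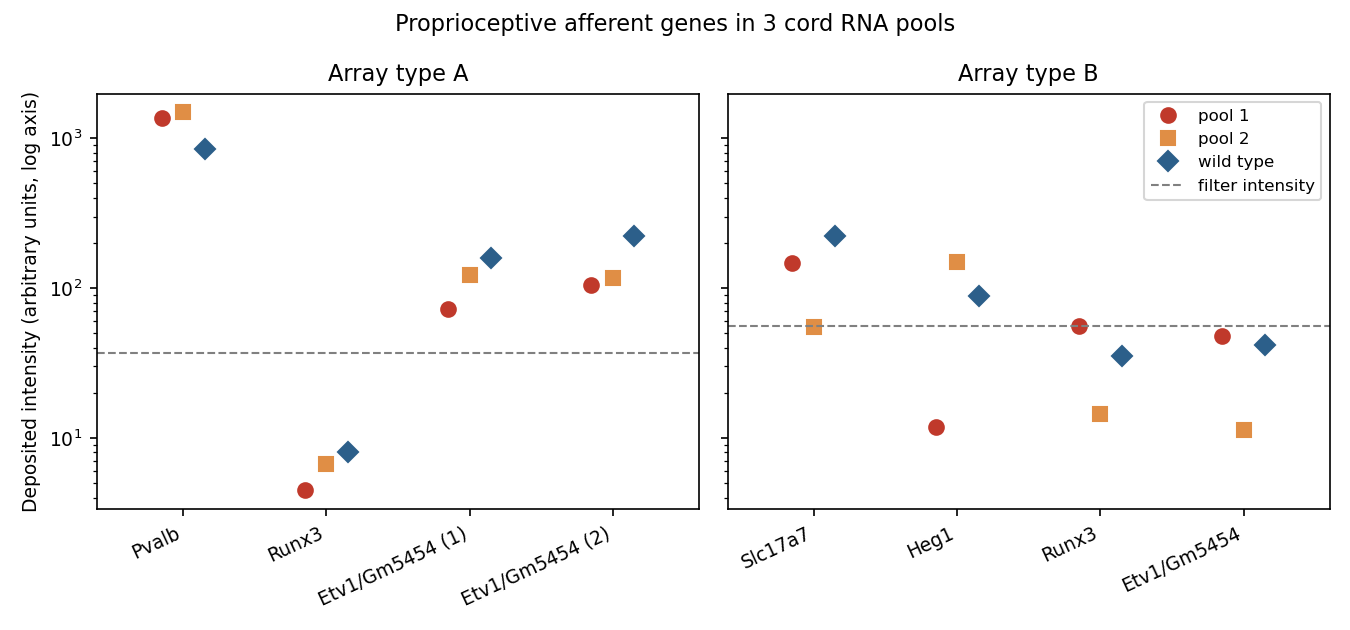
Deposited intensity (log axis) of each member probe set in Egr3-deficient pool 1 (circle), Egr3-deficient pool 2 (square) and the wild-type pool (diamond), on array type A (left) and B (right). Each point is 1 array, and the dashed line is the intensity that corresponds to the filter, 36.7 on A and 55.9 on B. Pvalb reads 1354 and 1487 in the Egr3-deficient pools, against 848 in wild type, and the pools part in Heg1, at 11.9 and 149 against 88.8.

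Fast skeletal muscle genes moved with Pvalb in the same pools, as a list of 18 genes shows. All 17 genes measured on array type A exceeded wild type in each Egr3-deficient pool, and 7 rose by limma, although 0 were called with no filter. Their summed intensity was 5263 in pool 1 and 6496 in pool 2, against 555 in wild type, and the median log2 difference was 3.10. All 4 measured on B did so too, and 1 rose. With scaling on the probe sets common to both array types, where the median of all probe sets on B was -0.55, 2 of these 4 exceeded wild type in both pools. The call on B was lost with that scaling, without quantile normalization, without trend and with no filter. No gene of the list read 0 in wild type, and Tnni2, a fast troponin subunit, had the lowest reading there, 1.33. Of the genes called on A, all but Acta1 read under the filter intensity of 36.7 in wild type. They passed the filter, which uses the mean over all arrays, through their readings in the Egr3-deficient pools. Mylpf, the fast myosin light chain, read 594 and 608 in pools 1 and 2, against 8.41 in wild type (log2 difference 4.67, limma adjusted p = 0.00479). For Acta1, the actin of skeletal muscle, intensities were 1096 and 1205 against 39.7. The part of muscle RNA in the Pvalb difference was not tested. The log2 difference of Pvalb was smaller than that of 16 of the 17 muscle genes on the array, Pygm (0.53) being the exception.

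Other calcium buffers of the same EF-hand family did not share 1 direction. Calb2, calretinin, read 1154 and 969 in the Egr3-deficient pools, against 699 in wild type, which is above it in both (log2 difference 0.53, adjusted p = 0.271). Calb1, calbindin, which marks Renshaw cells among other neurons, had probe sets that disagreed. It read 136 and 183 against 297 on array type A (log2 difference -0.81, adjusted p = 0.227), and 111 and 94.3 against 70.4 on array type B (0.63, adjusted p = 0.696). Scaling on common probe sets turned the Calb1 difference on B to -0.05, but it also moved the median of all probe sets there from 0.02 to -0.55. The inhibitory interneuron genes, from cells that include many with Pvalb, gave no call. Of 5 on array type A, 3 exceeded wild type in each pool and 1 was under it in each, with a median of 0.19, and their summed intensity was 1789 and 1762 in pools 1 and 2, against 1479 in wild type. Of 4 on B, 2 lay above and 2 lay below in both, with a median of -0.12. That median turned to 0.06 without quantile normalization and to 0.23 with median centring, and was -0.46 with scaling on common probe sets. Slc32a1, the vesicular transporter of GABA and glycine, read 782 and 606 against 458 on A, whereas Gad2, a GABA-synthesising enzyme, read 35.3 and 44.3 against 86.4.

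Etv1/Gm5454 read below wild type in both Egr3-deficient pools on array type A, with both of its probe sets there. RefSeq places Etv1 on chromosome 12 from 38780082 to 38870483 and Gm5454 on chromosome 13 from 103356181 to 103358567, and signal from the gene and the pseudogene cannot be told apart. Both probe sets were designed on the same Etv1 transcript and share that target, so they are not replicates of each other. The first read 72.1 in pool 1 and 122 in pool 2, against 159 in wild type. The second read 104 and 116, against 222. The log2 difference was -0.84 and -0.28 in pools 1 and 2 for the first (mean -0.56, SE 0.37, 95% interval -1.42 to 0.29, adjusted p = 0.393) and -0.88 and -0.82 for the second (mean -0.85, SE 0.32, 95% interval -1.60 to -0.11, adjusted p = 0.206). The pools agree closely for the second probe set, with a gap of 0.06 between them, and less so for the first, with a gap of 0.56. On array type B the third probe set was too dim to be tested. It read 48.1 in pool 1 and 11.3 in pool 2, against 41.5 in wild type, so pool 1 was above wild type and pool 2 below it.

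The other PEA3 factors, the subfamily of ETS factors to which Etv1 belongs, gave no call. After normalization none of the 2 measured lay below wild type in both pools, but 1 of 2 did on each array type with scaling on common probe sets, and on B without quantile normalization. With that scaling the median of all probe sets on B was -0.55. Etv5 read 48.8 and 56.5 in the Egr3-deficient pools, against 48.0 in wild type, on array type A. On B it read 694 and 419 against 266 (log2 difference 0.95, adjusted p = 0.298). Etv4 was dim on A, and on B it read 71.6 and 44.6 against 71.9, with log2 differences of 0.23 and -0.41 after normalization.

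Slc17a7, which encodes the vesicular glutamate transporter VGLUT1 of proprioceptor and other low-threshold afferent terminals, lies on chromosome 7 from 45163921 to 45176139. On array type B it read 148 in pool 1 and 54.9 in pool 2, against 223 in wild type. Wild type was thus the highest of the 3 pools, and the pool 2 value lay just under the filter intensity of 55.9. The deposited intensity was 1.51-fold lower than wild type in pool 1 and 4.06-fold lower in pool 2. The log2 difference was -0.45 and -1.72, with a mean of -1.08 and an SE of 0.51 (95% interval -2.11 to -0.06, limma adjusted p = 0.316). The 2 Egr3-deficient pools differed from each other by 1.27, which exceeds the mean difference from wild type. Of all tested probe sets on array type B, 5.67% had the same or a lower difference.

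Slc17a6, the gene of the related transporter VGLUT2 that many cord interneurons use, was also below wild type in both pools. It read 247 and 333 in the Egr3-deficient pools on array type A, against 567 in wild type (log2 difference -0.96, SE 0.32, adjusted p = 0.181). Pan-neuronal genes pointed the same way on A, where 6 of 9 lay under wild type in each pool and 2 over it, with a median of -0.44 and no call. Their summed intensity was 14370 and 15761 in pools 1 and 2, against 19292 in wild type. On B, the array type of Slc17a7, 3 of 5 were below and 1 above, with a median of -0.41, but the sum was 21959 and 23292 against 20632. That median turned to 0.16 without quantile normalization and to 0.33 with median centring. With scaling on common probe sets it was -0.43, where that of all probe sets was -0.55. Snap25, a synaptic vesicle fusion protein gene, read 2172 and 3140 in pools 1 and 2, against 4838 in wild type, on A (log2 difference -0.96), but 182 and 318 against 176 on B (0.51). The part of neuronal content in the Slc17a7 difference was not tested.

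**Figure D2:**
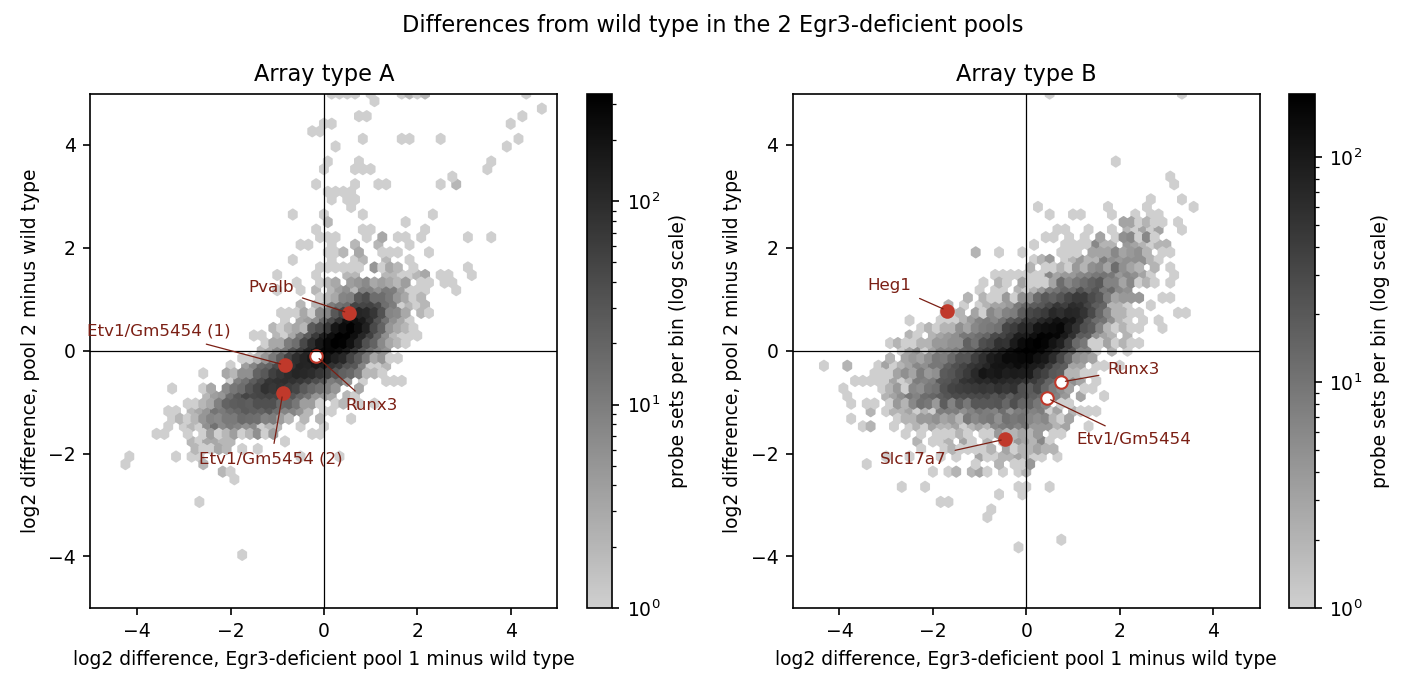
Log2 difference from wild type in Egr3-deficient pool 1 (x axis) and pool 2 (y axis) on array type A (left) and B (right), with values beyond 5 drawn at the edge. Grey bins hold all tested probe sets (darker for more, log scale), filled red points are member probe sets that were tested and open red points those under the filter. Both axes share the wild-type pool. Pvalb lies at 0.53 and 0.73, Slc17a7 at -0.45 and -1.72, and Heg1 stands at the upper left at -1.70 and 0.78.

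Runx3 (chromosome 4, 135120645 to 135177990) stayed under the filter on A and on B. Its intensity on A was 4.48 in pool 1 and 6.72 in pool 2, against 8.10 in wild type, at percentiles 11.2 and 12.4 of all probe sets, against 14.4. On array type B it read 55.6 in pool 1 and 14.5 in pool 2, against 35.3. Wild type was the highest pool on A and the middle one on B, and the mean log2 differences were -0.14 and 0.07. At these intensities Runx3 was not tested, so the values show neither a difference nor its absence. Its relative Runx1, known in mice for pain-sensing neurons and for microglia, read 26.6 and 54.8 against 41.6 on A and was dim on B. Cbfb, the partner subunit of RUNX factors, read 190 and 272 in the Egr3-deficient pools, against 420 in wild type (log2 difference -0.82, SE 0.33, adjusted p = 0.224).

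Heg1 (chromosome 16, 33684384 to 33771576) differed more between the 2 Egr3-deficient pools than between them and wild type. On array type B it read 11.9 in pool 1 and 149 in pool 2, against 88.8 in wild type, so wild type lay between them. The log2 difference was -1.70 in pool 1 and 0.78 in pool 2, with a mean of -0.46 and an SE of 0.83 (95% interval -2.12 to 1.20, limma adjusted p = 0.878). The gap of 2.49 between the pools compares with a median gap of 0.38 over all tested probe sets on B. Pool 1 is the pool without the remark on acclimatization, and its part in this gap was not tested.

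Genes that work with Heg1, which anchors the cerebral cavernous malformation complex in endothelial cells, gave no call. Of 7 such genes on array type A, 5 exceeded wild type in each pool and 1 was under it, with a median of 0.52. On B, with Heg1 itself in the list, 2 of 3 were below and the third was Heg1. Pdcd10, a subunit of the complex, read 266 and 281 in the Egr3-deficient pools, against 688 in wild type, on A (log2 difference -1.29, SE 0.29, adjusted p = 0.161), and 10.3 and 6.36 against 97.3 on B, where it did not reach the filter. Ccm2, another subunit, read 982 and 535 against 381 on A, and Klf2, a transcription factor known to respond to the complex, read 78.8 and 69.8 against 38.5. Endothelial markers had a median of 0.20 on A, where 7 of 11 exceeded wild type in each pool and 1 was under it. Their summed intensity was 1296 and 1195, against 1128 in wild type.

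**Figure D3:**
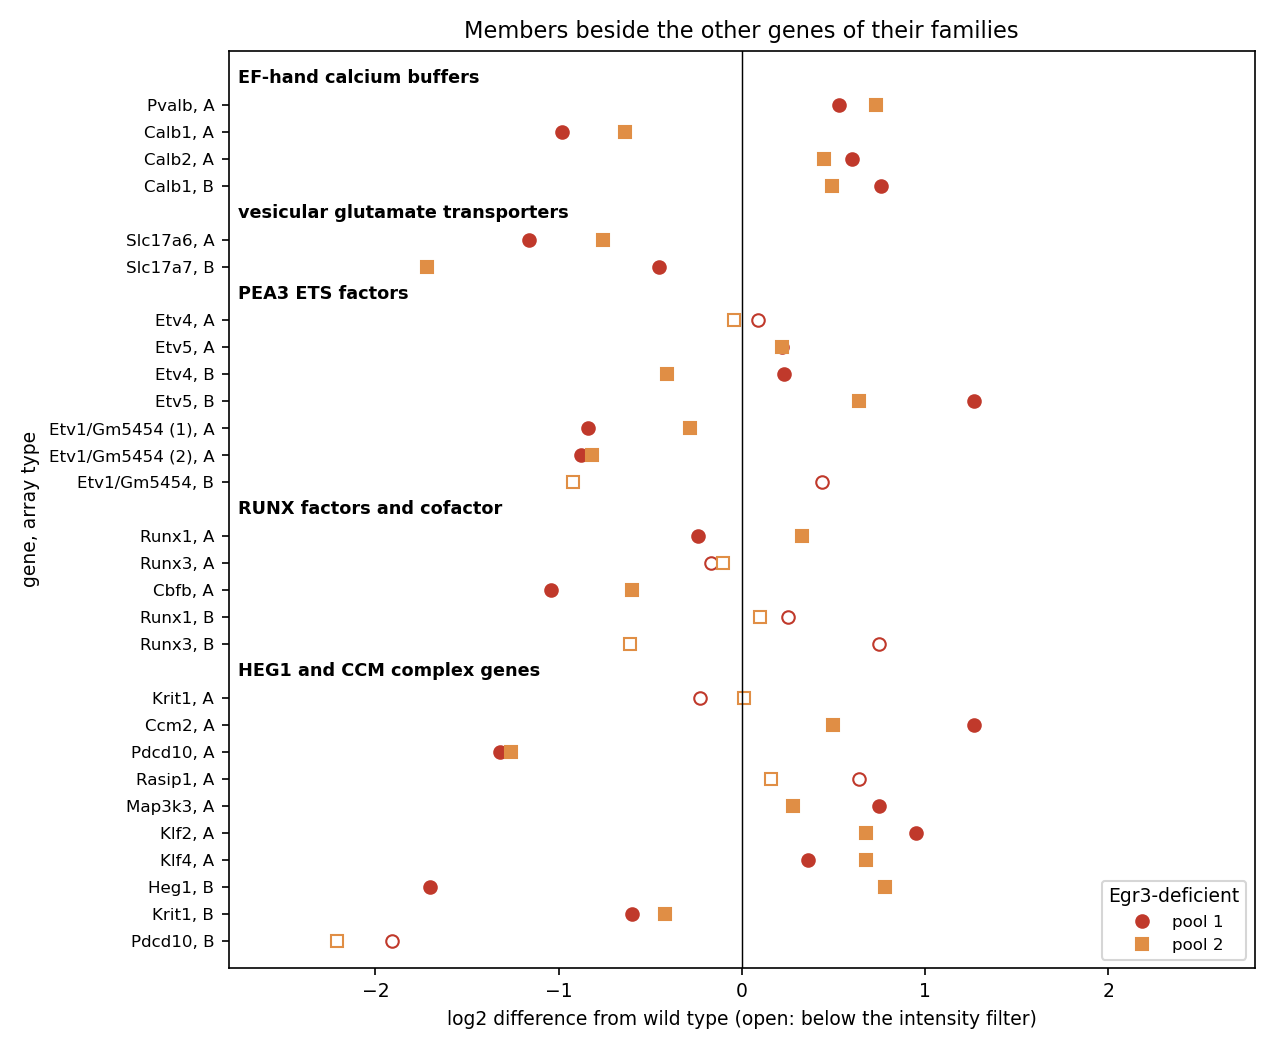
Log2 difference from wild type in Egr3-deficient pool 1 (circles) and pool 2 (squares) for the members and the genes of their families, each row a gene on 1 array type, with open symbols for probe sets under the filter. Where a gene has several probe sets, the brightest is drawn, except for Etv1/Gm5454, which is drawn with all 3. Slc17a6 and Slc17a7 both lie left of 0, with means of -0.96 and -1.08, while Calb1 lies on opposite sides on A and B. Its side on B turns with scaling on common probe sets, which moved the median of all probe sets on B to -0.55.

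Counted over the set, 3 of the 5 probe sets that name 1 gene were tested, along with 2 of the 3 of Etv1/Gm5454. The limma test with Benjamini-Hochberg adjustment called 0 of them, where 0.0663% of tested probe sets were called on array type A and 1.63% on B. At an unadjusted p under 0.05 there were 3, namely Pvalb and the second Etv1/Gm5454 probe set of the 3 tested on A and Slc17a7 of the 2 tested on B. The same level was met by 20.7% of all tested probe sets on A and 14.2% on B, so such values are common in these data. Of the 4 member probe sets on A, filter aside, 1 exceeded wild type in each pool and 3 were under it, against 42.7% above and 35.5% below over all probe sets. Of the 4 on B, 0 were above in both and 1 was below, against 37.8% and 35% over all. With so few probe sets these counts show no difference from the background. Over the probe sets that name 1 gene, the median log2 difference was 0.25 on A (2 probe sets) and -0.46 on B (3 probe sets), and over all probe sets it was 0.05 and 0.02.

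Other genes known from proprioceptors had no call either. Of 10 genes, 7 were on array type A and 7 on B, and on each 4 exceeded wild type in both pools and 2 were under it, with medians of 0.18 and 0.12. The median on A was 0.09 without quantile normalization and 0.06 with scaling on common probe sets. That on B was 0.31 without quantile normalization and 0.48 with median centring, and turned to -0.27 with scaling on common probe sets, where that of all probe sets was -0.55. Ntrk3, the receptor for the neurotrophin NT-3 on which proprioceptors depend, read 822 and 775 in the Egr3-deficient pools, against 641 in wild type, on B, and 50.8 and 38.4 against 37.1 on A. Its log2 differences were 0.12 and 0.28. Whrn, whirlin, read 352 in each Egr3-deficient pool, against 214 (log2 difference 0.71, adjusted p = 0.503). Crtac1, a matrix protein gene, read 704 and 333 against 209 on B (1.15, adjusted p = 0.198), but 229 and 193 against 205 on A. Sema5a, a semaphorin gene, was below wild type in both pools on both array types. It read 56.7 and 51.4 against 134 on A and 883 and 1010 against 1417 on B (adjusted p = 0.183 and 0.288). Piezo2 also lay below in both pools on B, at 109 and 61.5 against 188 (-0.95, limma adjusted p = 0.421). Nxph1 did so on A, at 76.1 and 113 against 163 (-0.62, limma adjusted p = 0.33). On B Nxph1 read 330 and 374 against 363.

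Markers of sensory ganglion neurons in general were dim or did not pass, as far as they were measured. Of 15 genes, 9 were on array type A, of which 4 reached the filter, and 6 on B, of which 4 did. On A 1 exceeded wild type in both pools and 5 lay under it, with a median of -0.34. Their summed intensity was 977 and 995 in the Egr3-deficient pools, against 1116 in wild type, and on B it was 2186 and 1467 against 1904. On B 1 exceeded wild type in both pools and 2 lay under it, with a median of 0. None read 0 in a pool. Avil, advillin, a defining ganglion marker, read 11.2 and 3.07 in the Egr3-deficient pools, against 64.5 in wild type, and Scn10a, a sodium channel gene of pain-sensing neurons, read 6.71 and 9.39 against 29.4. Both had a mean log2 value under the filter, so neither was tested. Isl1, which motor neurons also express, read 15 and 26.9 against 67.4 and did not reach the filter either. Ntrk2, the receptor for BDNF, read 492 and 556 against 429 on A (log2 difference 0.28, adjusted p = 0.586) and 1117 and 822 against 1058 on B (-0.38, adjusted p = 0.732). Ret, a GDNF receptor subunit, had differences of -0.01 on A and 0.01 on B, and Pou4f1, a transcription factor, read 165 and 97.0 against 115 on B (0.26, adjusted p = 0.890). Prph, peripherin, which motor neurons also express, read 262 and 241 against 325 (log2 difference -0.34, adjusted p = 0.537).

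Signals that link afferents to the spindle gave no call. Of 7 such genes on array type A, 4 exceeded wild type in each pool and 2 lay under it, with a median of 0.02. On B 1 of 4 was above and 1 below, with a median of -0.05. That median turned to 0.13 without quantile normalization and to 0.30 with median centring. With scaling on common probe sets it was -0.46, with all 4 below, where that of all probe sets was -0.55. Nrg1, the neuregulin by which sensory axons induce the spindle, read 104 and 133 in the Egr3-deficient pools, against 221 in wild type, on B (log2 difference -0.74, adjusted p = 0.514). Erbb3, a neuregulin receptor, read 326 and 309 against 270 on A. Gfra1, a coreceptor for GDNF, read 91.7 and 96.8 against 142 on A and 900 and 1037 against 904 on B.

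Genes of afferent connectivity in the cord, which guide the axons or shape their terminals, gave no call, and 4 of the 9 on array type A and 6 of the 7 on B reached the filter. On A 7 of 9 were below wild type in both pools and 1 was above, with a median of -0.50, where 35.5% of all probe sets were below. On B 5 of 7 were below and 1 above, with a median of -0.65, where 35% of all were below. That median was -0.37 without quantile normalization and -0.20 with median centring, each with 4 of 7 below. With scaling on common probe sets it was -0.96, where that of all probe sets was -0.55. The median on A was -0.22 with a pseudocount of 64. Nrcam, an adhesion molecule of afferent terminals, read 185 and 204 in the Egr3-deficient pools, against 301 in wild type, on A, and 397 and 471 against 813 on B (log2 differences -0.56 and -1.05, adjusted p = 0.324 and 0.210). Sema6d, a repellent cue, read 2488 and 2750 against 3384 on B and 57.8 and 73.0 against 127 on A. Plxna1, a semaphorin receptor, read 591 and 428 against 196 on B (1.31, SE 0.44, adjusted p = 0.112), but 13.2 and 29.1 against 31.3 on A, under the filter. Its probe sets thus pointed in opposite directions.

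**Figure D4:**
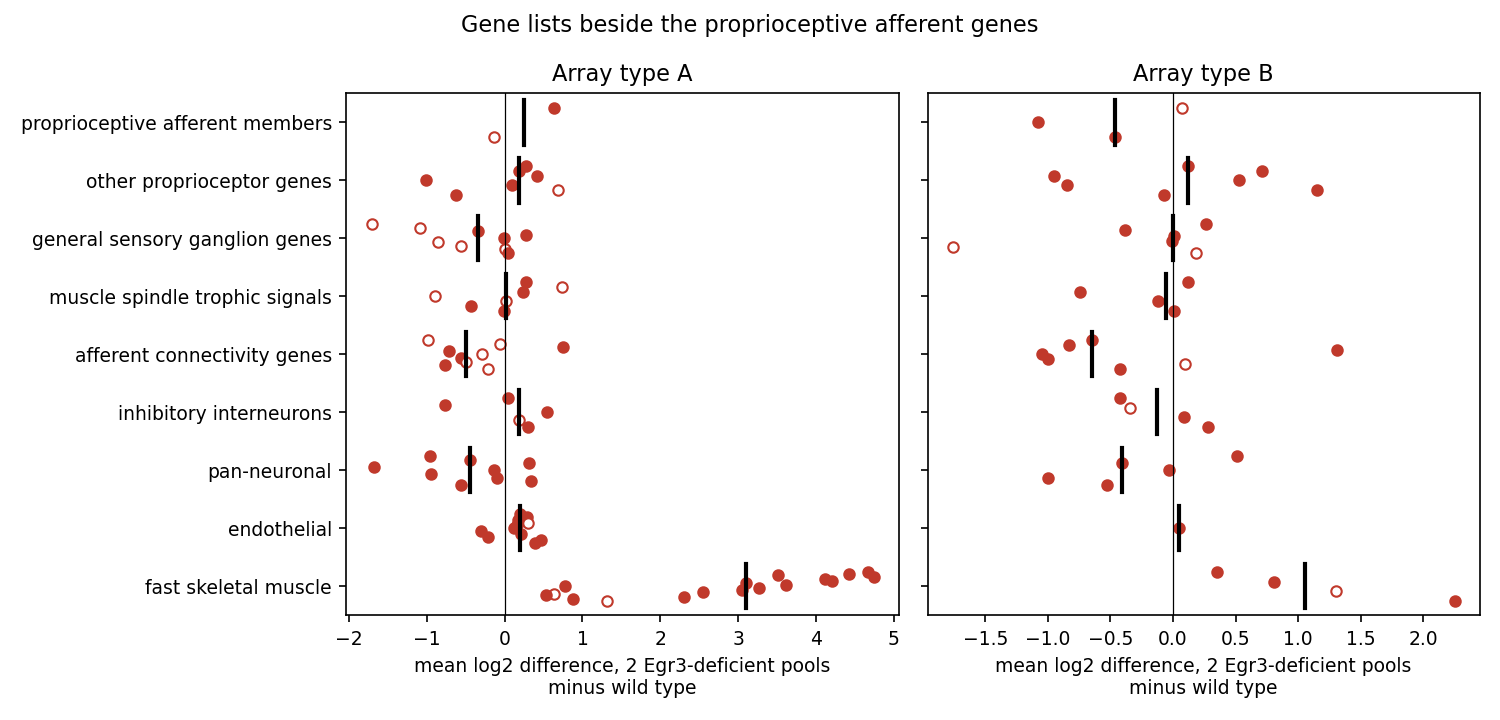
Mean log2 difference of the 2 Egr3-deficient pools from wild type for each gene (points, open where the brightest probe set lies under the filter) in 9 lists, on array type A (left) and B (right, with its own scale), with black bars for the list medians. Etv1/Gm5454 is not drawn. The fast skeletal muscle genes stand furthest to the right on A, with a median of 3.10, and the afferent connectivity genes have a median of -0.50 on A, and on B one of -0.65 that becomes -0.20 with median centring.

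The genes whose pair of differences was most like that of a member were found by Euclidean distance over the 2 differences from wild type, each from 3 arrays that share the wild-type pool. For Pvalb the nearest of 12541 tested probe sets that name 1 gene on array type A were those of Mrps30, Cryzl2 and Kdm2b, at distances of 0.018, 0.019 and 0.020, and 92 lay within 0.1. For the second Etv1/Gm5454 probe set they were Rab3gap2, Rnf103 and Nucks1, at 0.0074, 0.011 and 0.013, and for the first Ebf1, Xist and Hoxc8, at 0.0035, 0.013 and 0.016. Members of array type B had fewer close neighbours. Of 9652 probe sets, 0 lay within 0.1 of Slc17a7, with Fbxl21, Tbc1d4 and Kdm5c nearest at 0.14, 0.16 and 0.16. The nearest to Heg1 were Nol8 at 0.085, 1110032A03Rik at 0.19 and Prickle1 at 0.20. With 3 arrays such likeness is weak, and many probe sets share any pattern near the centre.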

How the data were processed

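Total RNA from 3 pools was hybridised to 2 array types. The values the authors deposited are linear intensities, 1 for each probe set of an array, and per the file values the arrays were scaled to a trimmed mean near 150. No source used here names the summarising program, and the number of arrays limits the precision. Of 22690 and 22575 probe sets on array types A and B, 64 each were controls and were left out. Symbols came from the platform annotation, updated through gene identifiers by RefSeq (GRCm38.p6) for 20351 and 14486 probe sets.

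The array types were treated separately. To each intensity 16 was added before taking log2, arrays were quantile normalized, and probe sets from the 40th percentile of the mean upward were kept (13576 on A, 13507 on B). Fits used limma 3.58.1 (R 4.3.3; lmFit, eBayes with trend), with Benjamini-Hochberg adjustment within an array type and a threshold of 0.05. Differences on this scale understate changes of dim genes. There was 1 residual degree of freedom, from the 2 Egr3-deficient pools, plus the prior across probe sets (6.54 on A, 52.3 on B), so the spread of wild type is taken to equal theirs. The fit was also run on simulated data drawn with the same spread for all pools, so that run cannot check this assumption. For lists, each gene was taken by its brightest probe set. Named genes were all members, of each other list the called genes or otherwise up to 3 tested genes ranked by the weaker of the pools' ratios, and the 3 nearest patterns. Further genes were chosen after their values were seen, and not every gene the rule gives is printed. The members and lists were chosen with earlier results of these data known.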

Additional observations from a re-analysis of the deposited data

How the results depend on the processing

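Over 11 alternatives (no quantile normalization, median centring, scaling on the 100 probe sets common to both array types, a pseudocount of 1 or of 64, all probe sets tested, a stricter filter at the 60th percentile, robust eBayes, eBayes with no trend, p-values adjusted jointly for A and B, and averaging the probe sets of each gene), 0 member probe sets that name 1 gene were called on either array type. The adjusted p ranged from 0.134 to 0.340 for Pvalb, with log2 differences from 0.61 to 0.85. It ranged from 0.232 to 0.638 for Slc17a7 (-1.70 to -0.80) and from 0.576 to 0.938 for Heg1 (-1.06 to -0.17), and from 0.157 to 0.338 for the second Etv1/Gm5454 probe set on A (-0.95 to -0.67). Heg1 was not tested under the stricter filter. Scaling on common probe sets moved the median of all probe sets on B to -0.55, and there 2 members were on the same side of wild type in both pools, against 1 in the reported setting. With 1 Egr3-deficient pool left out no test remains, and Heg1 ranged from -1.70 to 0.78, Slc17a7 from -1.72 to -0.45 and Pvalb from 0.53 to 0.73. The wild-type pool could not be left out. Calls over all probe sets were 9 higher and 0 lower on A and 138 and 82 on B. On A they were 227 and 597 under median centring, 31 and 46 with averaged probe sets, 17 and 9 with joint adjustment, 17 and 17 on common scaling, and 0 with no filter. On B they were 2 and 0 without quantile normalization, 119 and 22 under median centring, 201 and 170 with robust eBayes, 180 and 195 with the stricter filter, 168 and 181 with a pseudocount of 64, 80 and 41 with joint adjustment, 69 and 20 with averaged probe sets, and 0 without trend, without a filter or on common scaling. The cause was not tested. No paired analysis was possible because the labels give no pairing and there is 1 wild-type pool.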
